A study of Homo sapiens with 4 samples.

Results

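The regions described here are ChIP peaks of the transcription factor TBX3 whose replicate 1 summits were labelled as ancient LINE elements. LINEs are long interspersed nuclear elements, and those described here belong to families other than L1. The regions were chosen in 2 steps. A peak summit of ChIP replicate 1 had to carry a deposited repeat label of class LINE with a family other than L1, and a summit of ChIP replicate 2 had to be its mutually nearest neighbour within 200 bp on the same chromosome. Of 22702 regions shared by the replicates, 807 met the rule, or 3.55% (95% Wilson interval 3.32% to 3.80%).

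The study profiled chromatin of 501mel, an established human melanoma cell line, by chromatin immunoprecipitation and sequencing (ChIP-seq). The labels describe 2 ChIP samples of cells with TBX3-3xHA, a TBX3 protein fused to the HA peptide tag and precipitated with the HA antibody 12CA5, and 2 input samples of the same line, which were not analysed here. The labels name no treatment, time point or untagged control for any sample, and they do not say whether the replicates came from separate cultures. Both ChIP samples come from a single cell line and a tagged protein, so they describe that protein in these cells. No expression was measured, so the melanoma label could not be checked against marker genes.

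TBX3 is a T-box transcription factor known mostly as a repressor in development, and T-box proteins recognise a short sequence whose core half-site reads GGTGTG. L2 and CR1 are LINE families that copied themselves in the ancestors of mammals and have long been immobile in humans, as have the RTE families. What remains is mostly short, diverged fragments spread over introns and intergenic sequence. Some L2 fragments are known to serve as regulatory sequence or to be the source of microRNAs, and MIR elements are short repeats that were copied by the L2 machinery.

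The replicate 1 annotation, by which the regions were chosen, divided them mostly among L2 and CR1. L2 accounted for 651 of the 807 regions (80.7%) and CR1 for 93 (11.5%), so that 744 regions (92.2%) lay in these 2 families. The RTE-BovB family held 33 regions, all labelled MamRTE1, and RTE-X held 30. Among subfamilies, L2a held 226 regions, L2c 193, L2b 160 and L2 without a subtype 69, while L3, the main CR1 subfamily, held 59. The other 12 of 18 subfamily labels had fewer than 20 regions each and 67 regions together, among them L4_A_Mam with 14, L3b with 11 and Plat_L3 with 10.

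Sequence could be shown where a summit fell into a RefSeq promoter window, which runs from 250 bases before to 50 bases after a start site in GRCh38.p14. Of 35116 such windows, 4 held the replicate 1 summit of one of the 807 regions, and all 4 belonged to long non-coding RNAs that the deposited lists did not name as the nearest gene. The sequences below are RefSeq's, read 5′ to 3′ on the strand of that RNA, and are shown because they surround the L2 summits for which sequence was at hand. The repeat named with each is the label of its replicate 1 summit, and how far the L2 fragment reaches was not determined. They run to 50 bases on either side of the summits where the window allowed and stop at the start site. Capitals mark the stretch from the summit of one replicate to that of the other.
LOC105370913 (L2c, chr15:78716122-78716258, minus strand): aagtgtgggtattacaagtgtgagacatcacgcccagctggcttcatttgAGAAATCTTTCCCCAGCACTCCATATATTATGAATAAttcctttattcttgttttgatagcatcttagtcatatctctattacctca
LOC105370664 (L2c, chr14:100406708-100406818, plus strand): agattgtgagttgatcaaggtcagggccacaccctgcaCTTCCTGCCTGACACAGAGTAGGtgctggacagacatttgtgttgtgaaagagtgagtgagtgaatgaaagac
LOC124901727 (L2b, chr7:111756879-111756973, plus strand): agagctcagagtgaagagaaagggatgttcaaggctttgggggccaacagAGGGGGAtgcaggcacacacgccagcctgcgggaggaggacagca
LOC105377302 (L2a, chr4:79744342-79744475, minus strand): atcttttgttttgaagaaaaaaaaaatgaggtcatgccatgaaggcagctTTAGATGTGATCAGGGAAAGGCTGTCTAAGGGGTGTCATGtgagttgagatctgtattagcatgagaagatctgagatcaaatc

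The 4 regions differed widely in peak score. The score was deposited by the authors, has no stated scale, and is compared only within its own list. At LOC105370913 it was 173 in replicate 1 and 318 in replicate 2, where the summits lay 112 and 148 bases before the start site, and the replicate 2 summit carried no repeat label. At LOC105370664 the scores were 59.9 and 150, with summits 212 and 190 bases before the start. The other two were weaker, with 14.5 and 35.0 at LOC124901727 and 7.12 and 14.8 at LOC105377302. At all 4 regions the number was larger in replicate 2, as was the median score over all peaks, 13.9 against 12.4. With no stated scale, this is not read as a difference between the replicates.

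The windows were searched on both strands for the T-box half-site. GGTGTG, searched as GGTGTG or its reverse complement CACACC, occurred in 1 of the 4 windows, LOC105370664, against 16.8% of all 35116 windows. Its first match lay 6 bp from the replicate 1 summit and 28 bp from the replicate 2 summit, and another match, just past the stretch shown, lay 72 and 50 bp from them. The longer GGTGTGA, which contains GGTGTG, occurred in none of the 4 and in 3.45% of all windows. CATGTG, an E-box hexamer of the kind bound by the melanocyte factor MITF, occurred in 2 of the 4 against 11.1% of all windows, spanning the replicate 1 summit at LOC105377302 and lying 56 bp from it at LOC105370913. CACGTG, the other E-box searched, was in none of the 4 and in 7.26% of all. These matches describe letters in a window, not binding sites.

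Regions in ancient LINEs carried somewhat lower scores than shared regions as a whole. Differences between repeat classes are given here and later with their intervals and without a test, since the study has a single ChIP condition and regions of 1 library are not replicates. Replicate 1 gave them a median score of 16.6 (quartiles 9.28 and 34.1), and replicate 2 a median of 26.0 (quartiles 13.7 and 55.6). Over all shared regions the medians were 19.3 and 29.0. Expressed as a percentile of the own list, where 100 is the highest score, the members stood at a median of 58.9 in replicate 1 (95% binomial interval of the median 57.2 to 60.6) against 63.6 for all shared regions, and at 67.9 (65.9 to 70.1) against 70.5 in replicate 2. Over shared regions outside satellites, the tandem repeats of centromeres, the percentiles were 63.6 and 72.2. L1 elements lay level with them at 58.9 and 69.6, and MIR elements higher at 62.6 and 74.4. Across the 807 regions, Spearman's rho between replicate scores was 0.843, and across all shared regions it was 0.852. It describes regions of the same pair of libraries and carries no p-value.

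**Figure D1:**
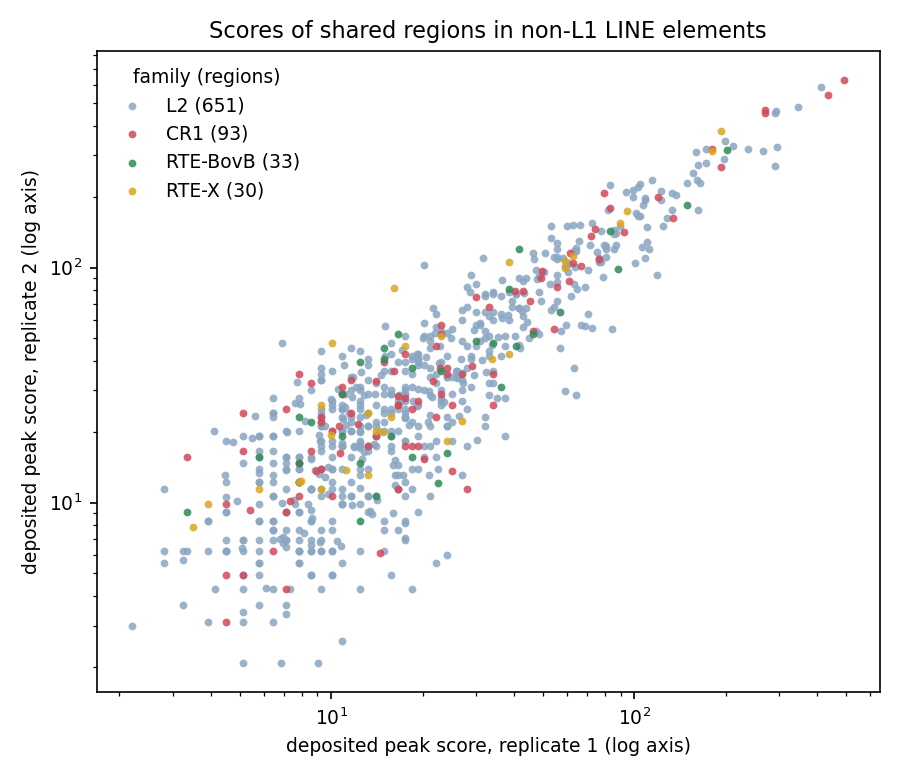
Deposited peak score of each of the 807 regions in replicate 1 (x axis, log) and replicate 2 (y axis, log), coloured by family. Each point is 1 region; scores rise together in both replicates, and regions of each family spread over most of the range.

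Subfamilies differed in score by amounts that mostly fell within the intervals of their medians. L3 had the highest median score in replicate 1 among the 6 labels with at least 20 regions, 21.6, and L2 without a subtype the lowest, 12.4. Their median percentiles were 66.8 (58.9 to 78.1) and 49.1 (41.0 to 60.6), so the intervals overlapped. L2a, L2b and L2c lay between them at 57.2, 59.3 and 60.6. In replicate 2 MamRTE1 came first with a median score of 36.4 and L3 second with 33.0, while L2 without a subtype was again lowest at 21.1. The order of L3 and MamRTE1 thus changed between the replicates.

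Strong sites made up a slightly smaller share of ancient LINE regions than of shared regions outside satellites. Of the 807 regions, 89 lay in the highest score decile of both lists, or 11.0% (9.05% to 13.4%), against 12.4% of all shared regions. Outside satellites the share was 13.6%, just above the members' interval. The members stood within the range of the other repeat classes. Alu had 7.59%, L1 8.91% and LTR elements 10.6%, while DNA elements had 13.3% and MIR 16.1%. Among the members, the share in L3 was 11 of 59 (18.6%, 10.7% to 30.4%) and in L2a 20 of 226 (8.85%, 5.80% to 13.3%). Of the 787 shared regions ranked within the first 1000 of both lists, 28 were members (3.56%, 2.47% to 5.09%), beside the 3.55% among all shared regions. Both bases include satellites. Outside satellites, members were 807 of 18929 shared regions, and the top ranks were not counted on that base.

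Among the strongest members was an intergenic L2a fragment on chromosome 8 (hg38), with summits at 119439189 and 119439223, 22877 bp downstream of the annotated transcription start site (TSS) of NOV. This gene, also called CCN3, encodes a secreted matrix protein known to affect melanocyte adhesion. The L2a scores were 413 and 587. It was followed by a Plat_L3 fragment 69339 bp upstream of PTPN1, which encodes a tyrosine phosphatase, at 50440982 and 50440988 on chromosome 20, with scores of 437 and 540. Both stood in the top score decile of both lists, at percentiles of at least 99.7.

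Among the following members, an L2c fragment lay in intron 3 of 17 of CDC16, which encodes a subunit of the anaphase-promoting complex. Its summits were at 114238037 and 114238042 on chromosome 13, 3192 bp from the TSS, with scores of 294 and 461, and no other shared region lay within 324213 bp of it. An L2b fragment in intron 1 of 9 of SLC38A8, an amino acid transporter gene, was 1246 bp from the TSS at 84040911 and 84040918 on chromosome 16, with scores of 265 and 313. An L3 fragment in intron 1 of 16 of AHCYL2 on chromosome 7, at 129316144 and 129316129, scored 270 and 468. An X6A_LINE fragment in an intron of TNIK, a kinase gene of the Wnt pathway, scored 269 and 455 at 171349533 and 171349518 on chromosome 3. In both lists these 4 regions scored far above the member medians.

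Other members among the 12 with the lowest sum of ranks were nearest to LOC102723345 (L2b, chromosome 13, scores 345 and 482), LOC101929058 (L2c in an intron of C12orf42, 290 and 455), ROPN1L-AS1 (L2 in intron 21 of 22 of MARCHF6, 296 and 327), HCG20 (L2, chromosome 6, 237 and 320) and FTH1P18 (L2a, chromosome X, 212 and 330). Summits of the strong regions described so far were at most 36 bp apart. The strongest MamRTE1 region scored 202 and 316, in intron 1 of 3 of LINC00351 on chromosome 13, 165605 bp from the TSS.

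**Figure D2:**
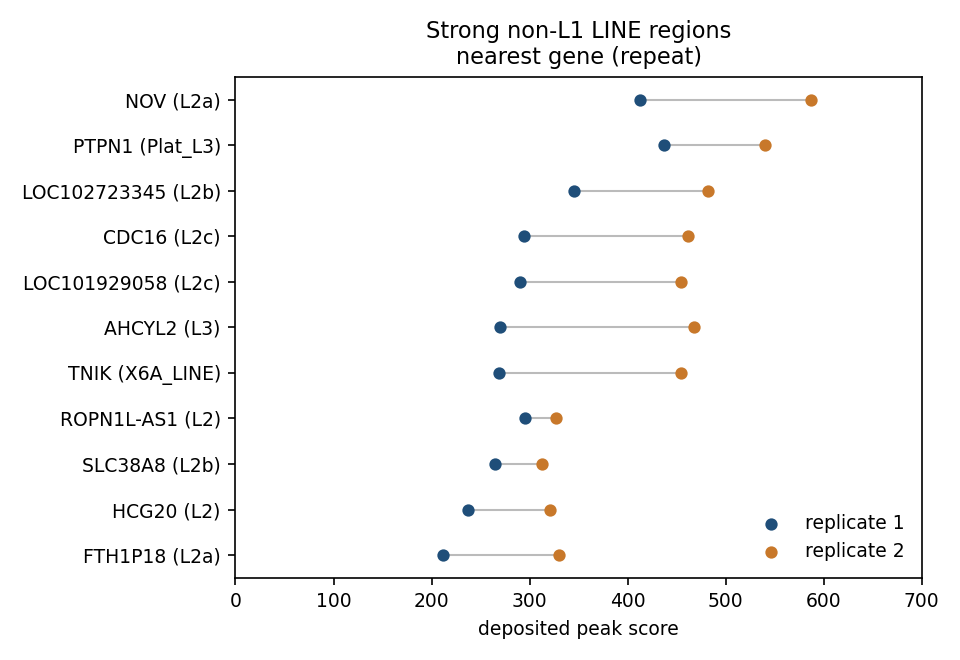
Deposited peak scores of 11 of the 12 regions with the lowest sum of ranks, with replicate 1 in blue and replicate 2 in orange; the x axis is the score and each row is labelled with the nearest gene and the repeat. Each of these 11 had a larger number in replicate 2 than in replicate 1. The lists differ in score range and the scale is not stated, so this is not read as a difference between the replicates.

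Peaks in ancient LINEs were found again in the other replicate less often than peaks at large, and other peaks of like score came close to them. The lists held 1353 such peaks in replicate 1 (4.17% of 32479) and 1641 in replicate 2 (4.05% of 40494). Of the replicate 1 peaks, 807 had a partner within 200 bp, or 59.6% (57.0% to 62.2%), against 69.9% of all replicate 1 peaks. Of the replicate 2 peaks, 821 had one, or 50.0% (47.6% to 52.4%), against 56.1% of all. L1 peaks had partners for 57.8% and 44.4%, and MIR peaks for 68.2% and 51.9%.

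Partner shares rose with the score both inside and outside ancient LINEs. In replicate 1 the share was 10.3% (6.71% to 15.6%) of the 184 ancient LINE peaks in the lowest score decile and 97.8% (92.5% to 99.4%) of the 93 in the highest. The corresponding shares of all peaks outside satellites were 18.5% and 98.8%. Other peaks outside satellites, weighted to the score deciles of the ancient LINE peaks, had a partner in 63.2% of cases in replicate 1 and in 50.2% in replicate 2. Those values stand beside the observed 59.6% and 50.0%, so the remaining gap was present in replicate 1 and nearly 0 in replicate 2. In replicate 1 it lay in the 3 lowest deciles, where ancient LINE peaks had fewer partners, 24.6% against 32.2% in decile 2 and 35.9% against 44.0% in decile 3.

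**Figure D3:**
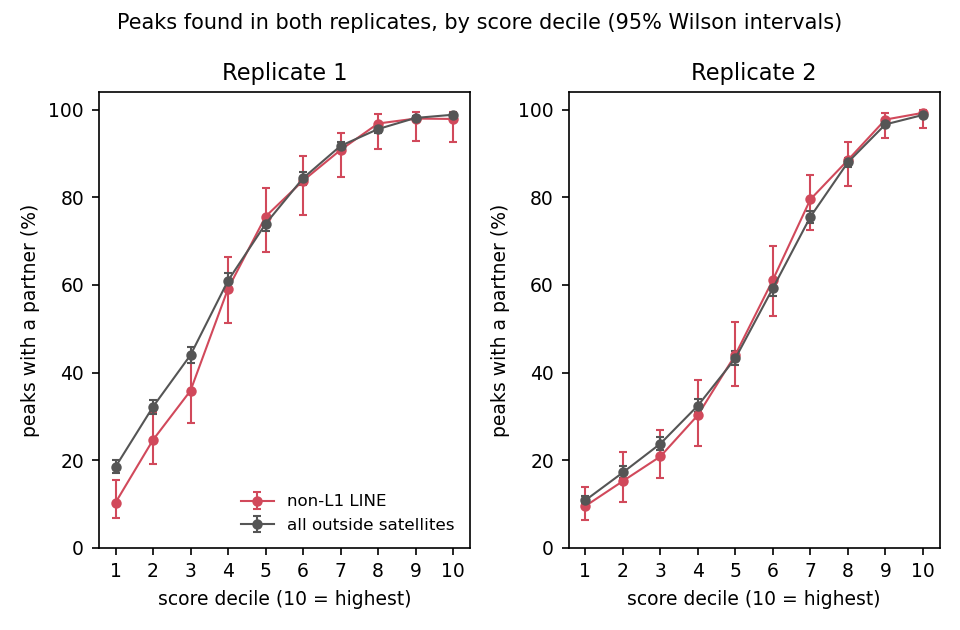
Share of peaks with a partner in the other list (y axis, %) by score decile of the own list (x axis, 10 is the highest), for ancient LINE peaks in red and all peaks outside satellites in grey, with 95% Wilson intervals. The curves lie close together from decile 4 upwards, and in replicate 1 the red points lie below the grey ones in deciles 1 to 3.

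Families outside L2 recurred more often in replicate 1. RTE-X peaks had a partner in 30 of 33 cases (90.9%, 76.4% to 96.9%) and CR1 peaks in 93 of 127 (73.2%, 64.9% to 80.2%), while L2 peaks had one in 651 of 1147 (56.8%, 53.9% to 59.6%). In replicate 2 the shares were 27 of 42 for RTE-X (64.3%, 49.2% to 77.0%), 101 of 185 for CR1 (54.6%, 47.4% to 61.6%) and 661 of 1362 for L2 (48.5%, 45.9% to 51.2%). The intervals of CR1 and L2 were apart in replicate 1 and overlapped in replicate 2. Median scores went the same way in replicate 1, at 15.8 for RTE-X, 13.2 for CR1 and 9.28 for L2, and the part of score in these shares was not tested.

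**Figure D4:**
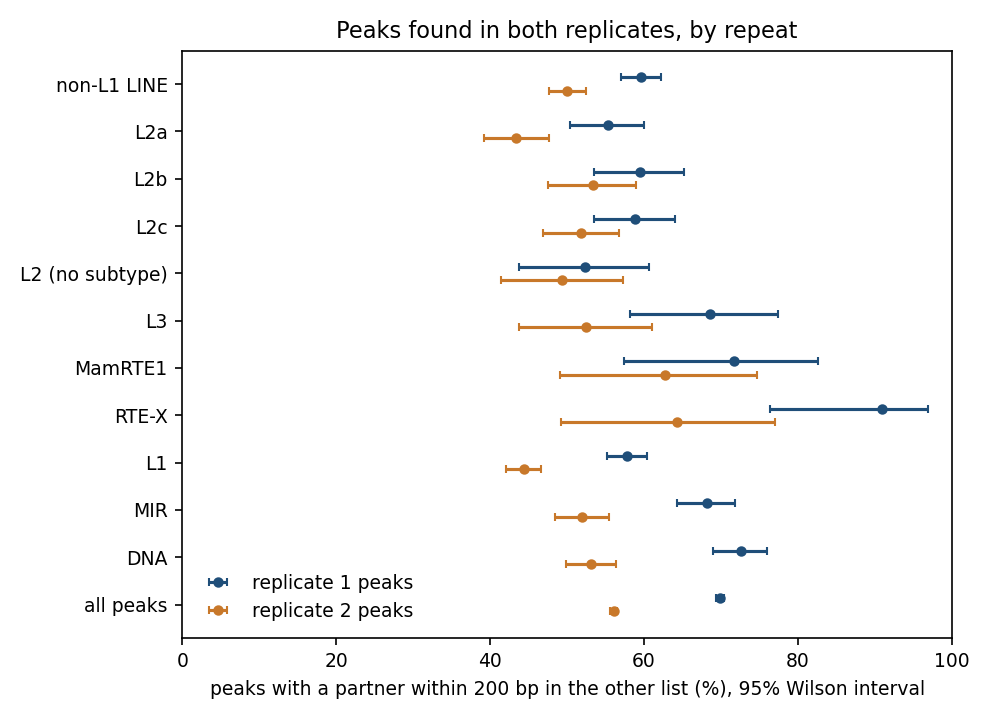
Share of peaks with a partner within 200 bp in the other list (x axis, %), by repeat, for replicate 1 in blue and replicate 2 in orange; bars are 95% Wilson intervals. In both lists the L2 subfamilies lie below the value of all peaks, and RTE-X is highest among those shown.

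The summits of a pair lay close together. Their median distance was 31 bp (28 to 33), 554 of the 807 pairs (68.6%) were within 50 bp against 71.4% of all shared regions, and 3 pairs had the same base. MamRTE1 pairs were tighter, with a median of 18 bp (10 to 28). At the edge of the pairing rule, the widest pair was 195 bp apart in an L2a near ALG14, with a replicate 1 score of 12.4, and the closest summit left out was an L2 peak near MIR887 at 204 bp, with a score of 4.50.

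The same repeat was named in both lists for 682 regions, or 84.5% (81.9% to 86.8%), against 92.4% of all 9474 shared regions with a repeat label. That base includes the 3773 regions in satellites, and the share without them was not computed. In 99 regions (12.3%) the replicate 2 summit had no repeat label, in 18 it lay in a repeat of another class and in 8 in another non-L1 LINE. Where the labels matched the summits were 26 bp apart at the median, and where the replicate 2 summit had no label they were 65 bp apart. MIR and Alu elements, which are short, had the same name in both lists for 74.7% and 75.8% of regions. The share was 87.1% in DNA elements, 93.0% in LTR elements and 95.2% in L1 elements, so the members lay within the range of these classes. A further 131 shared regions carried a non-L1 LINE label in replicate 2 alone, so that 938 regions had it in either list and 690 in both.

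Ancient LINE sites lay in introns more often than sites in L1 or LTR elements. Of the 807 regions, 472 were intronic (58.5%, 55.1% to 61.8%), against 39.7% of all shared regions, and 332 intergenic (41.1%), against 53.2%. The deposited annotation gave no repeat label to any of the 1399 shared regions at promoters, exons, untranslated regions or transcript ends, so members could not occur there. Among other intronic or intergenic regions outside satellites, 51.4% were intronic. By class the intronic share was 41.7% in L1 (38.3% to 45.1%), 36.6% in LTR elements, 53.0% in DNA elements, 58.7% in MIR (53.7% to 63.4%) and 59.0% in Alu. Ancient LINEs and MIR thus stood level, and the interval of L1 was apart from both. Among the members, CR1 fragments were intronic in 47.3% (37.5% to 57.4%) and L2 fragments in 59.4% (55.6% to 63.2%). How much of the genome each class occupies in introns was not measured, so its part in these shares was not tested.

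The distance to genes was close to that of shared regions outside satellites. The median distance of members to the nearest TSS was 36121 bp (31631 to 41271), beside 37088 bp over those regions and 51091 bp over all shared regions. Over other intronic or intergenic regions outside satellites, which leave out promoters and exons as the members do, it was 40716 bp. It was 35718 bp in MIR and 46703 bp in L1. Beyond 100 kb lay 20.3% of the members (17.7% to 23.2%), 24.3% of other intronic or intergenic regions outside satellites and 28.4% of the L1 regions. Within 10 kb of a TSS lay 146 members (18.1%, 15.6% to 20.9%), against 16.7% of all shared regions, 20.0% of those outside satellites and 16.1% of other intronic or intergenic regions outside satellites. The direction of this difference thus turned with the regions compared. MamRTE1 stood farthest out, with 14 of its 33 regions beyond 100 kb (42.4%, 27.2% to 59.2%) and 2 within 10 kb, whereas L2 had 120 of 651 beyond 100 kb (18.4%). First introns held 139 of the 472 intronic members (29.4%, 25.5% to 33.7%), beside 31.8% over all intronic shared regions.

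**Figure D5:**
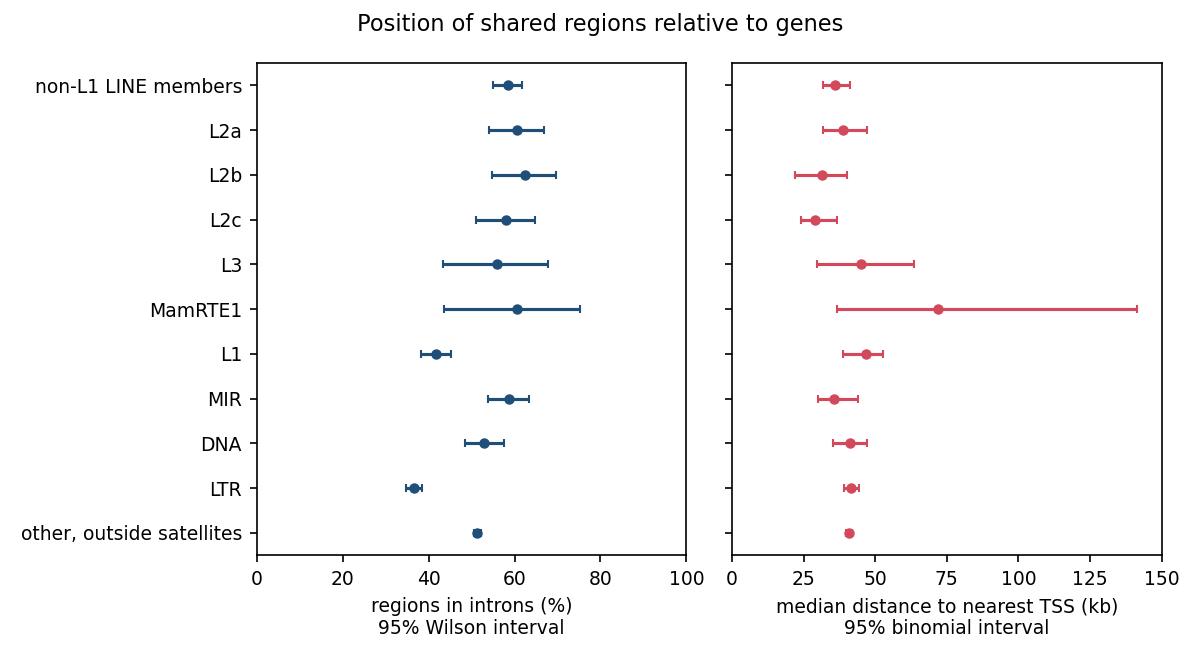
Share of shared regions in introns (left, %, with 95% Wilson intervals) and median distance to the nearest TSS (right, kb, with 95% binomial intervals) for the 807 regions, their subfamilies and other repeat classes. Ancient LINEs and MIR lie near 58.5% intronic, L1 and LTR elements lie lower, and MamRTE1 has the longest median distance with the widest interval.

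Few members lay near another member, but no like count was made for other sets of regions of this size. Another shared region lay within 10 kb of 265 members (32.8%), against 41.6% of all shared regions and 32.4% of those outside satellites, but another member lay that close to 21 members. Their share of shared regions outside satellites ran from 1.70% on chromosome 21 (4 of 235, 0.664% to 4.29%) to 6.31% on chromosome 12 (58 of 919, 4.91% to 8.07%), and 3 members were on sequences other than chromosomes 1 to 22 and X. Nearest genes were mostly different, also without such a count beside them. The 803 members with a named nearest gene had 754 different ones, of which 711 were nearest to a single member.

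IGF1, the gene of insulin-like growth factor 1, was nearest to 4 members, more than any other gene. All 4 were intergenic. An L3 region 138719 bp downstream of the TSS scored 79.1 and 208, while an L2c region 1603 bp upstream of it scored 5.76 and 13.9, and regions in L2a and L2 farther upstream, at 60615 and 68167 bp, scored 11.6 and 23.0, and 6.43 and 7.62. In IGF1 the high score was thus at the remote L3 fragment, and the fragment next to the gene was among the weak ones.

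LINC00290, MBNL2, MIR7150 and FBXO7 were each nearest to 3 members. At MBNL2, an RNA splicing regulator, the members lay side by side in intron 2 of 7 on chromosome 13, at 97280647 (L2a), 97282883 (L2b) and 97285842 (L2a), with replicate 1 scores of 18.4, 15.8 and 28.0 and replicate 2 scores of 22.1, 25.0 and 37.5. Those nearest to FBXO7 were all in intron 7 of 13 of SYN3, a synapsin gene, and the strongest of them, an L2c region, scored 42.4 and 65.6. The 3 nearest to MIR7150 lay in introns of DENND1A, which encodes an endocytic exchange factor; an L2a region in intron 5 of 20 scored 159 and 309, and an L2b region 6704 bp away scored 10.0 and 11.4. Those nearest to LINC00290 were spread over the longest stretch, up to 877222 bp from the TSS, with replicate 1 scores of 36.3, 16.6 and 15.8. SEMA5A, an axon guidance gene, also held 3 members in its introns, with replicate 1 scores of 9.15, 21.2 and 5.76, although other genes were nearest to them.

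Members within 10 kb of the TSS were found at 3 genes of pigmentation and of the melanocyte lineage. Of 28 pigmentation genes, 2 had one (7.14%), and 17 had a shared region of any kind. Of 25 regulators of the melanocyte lineage, 1 had a member within 10 kb (4.00%), and 7 had any shared region. Over all 20056 protein-coding genes of the gene table, 0.563% had a member within 10 kb and 2.55% had one at any distance as the nearest gene. For scale, 113 of the 2025 coding genes with any shared region within 10 kb had a member there (5.58%), and for the 116 listed genes, 115 of them in the gene table, it was 4 of 41 (9.76%). The lists hold a few genes each, so these shares rest on single genes.

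MITF encodes the transcription factor that directs the melanocyte lineage, and it had 2 members. An L2b fragment in intron 2 of 10 had summits at 69861705 and 69861730 on chromosome 3, 4519 bp ahead of an annotated start site, with scores of 98.9 and 214 and ranks of 2070 and 1116. The shared region nearest to this L2b site, 5744 bp away and without a repeat label, scored lower, at 17.5 and 45.3. An L2a fragment at 69930431 and 69930342, 6169 bp ahead of another start site, scored 6.43 and 6.91. The weak L2a site lay 1322 bp from a stronger shared region without a repeat label, which scored 92.2 and 135.

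At TYR, the gene of tyrosinase, an L2b fragment 2844 bp upstream of the TSS had summits at 89175028 and 89174992 on chromosome 11, with scores of 8.54 and 30.0. A shared region without a repeat label 961 bp away scored 11.6 and 48.8. SLC45A2 encodes a melanosomal transporter and held an L2a fragment in intron 2 of 5, at 33981052 and 33981065 on chromosome 5, with scores of 3.24 and 5.71. Its neighbour at 1077 bp, with no repeat label, scored 63.4 and 96.8. At both pigment genes the ancient LINE site was the weaker of the pair in both lists.

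HEY1, a Notch target that encodes a transcriptional repressor, showed the opposite order, as the L2b site of MITF did. An intergenic L2a fragment 6221 bp downstream of its TSS, at 79760254 and 79760261 on chromosome 8, scored 76.5 and 105, while the unlabelled region 840 bp away scored 17.5 and 62.0. HEY1 was the single gene with a member within 10 kb among 20 T-box factors and reported T-box targets, of which 5 had any shared region that close. That is 5.00% of the list, beside 0.563% of all coding genes, and it rests on 1 gene. Of the 20 listed names, 19 were in the gene table used for matching, so the list was not fully scored. GJA1 of that list had an L3 member 158066 bp away with scores of 10.0 and 10.6.

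Of 30 adhesion and axon guidance genes, 5 were the nearest gene of a member and none had one within 10 kb. For comparison, 29 of the 30 were the nearest gene of some shared region, and 17.2% of these 29 had a member. Over all coding genes nearest to any shared region, 511 of 5729 had a member (8.92%). The list share rests on 5 genes, and the difference was not tested. The strongest of the 5 was an intergenic L2a fragment 91437 bp upstream of UNC5C, a netrin receptor gene, with scores of 109 and 198. Next was a MamRTE1 fragment 253367 bp from SEMA3A, a secreted guidance cue, at 83.0 and 143, and then a MamRTE1 fragment in intron 3 of 6 of EPHA3, an ephrin receptor, at 23.1 and 36.4. EFNA5, an ephrin ligand gene, had a weaker one at 19.3 and 27.0. Of 13 genes of cysteine metabolism, 8 were nearest to some shared region. GCLC alone had a member, an L2a fragment 80145 bp from the TSS that scored 28.0 and 17.4.

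By the deposited nearest-gene annotation, which gave no repeat label at promoters, 3 members lay within 1 kb of a TSS (0.372%), all intronic. The share was 3.89% over all shared regions and 0.885% over other intronic or intergenic regions outside satellites. The 4 members before RefSeq start sites of long non-coding RNAs, shown above by sequence, were not among the 3. An L2 fragment 625 bp inside OLMALINC, a non-coding gene, scored 54.3 and 68.3, and L2b fragments in ZCCHC17 and LINC01213 scored 9.72 and 10.9, and 10.8 and 9.86. None of the members lay within 1000 bp of a microRNA hairpin of the RefSeq table, and 8 lay within 10000 bp, the closest an L2 fragment 1518 bp from MIR5690. Distances to hairpins were not measured for other shared regions, so these counts do not set the members apart.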

How the data were processed

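ChIP-seq of 2 ChIP and 2 input samples was described by the labels, and a peak list for each ChIP sample was analysed. Per the file headers, HOMER's annotatePeaks.pl was run on the summits of 1 sample at a time with hg38, so replicates were not pooled. The submitters' processing notes name cutadapt 2.8, Bowtie2 2.3.5, SAMtools 1.9 and MACS2 2.1.2 without roles. The peak score, deposited by the authors, has no stated scale; repeat, nearest gene and TSS distance, per the file headers, come from the same annotation. How reads mapping to several places were handled is not given in the sources used here, and it could change which repeat summits were called. Depth is unknown, so intervals cover counting error alone.

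Summits were paired when mutually nearest within 200 bp. Ranks give tied scores their mean rank, and deciles are of all peaks of a list. Shares have 95% Wilson intervals and medians binomial intervals. With 1 ChIP condition and members that are not replicates, no test was run, and differences between repeat classes are descriptions. Python 3.11.15, pandas 2.3.3 and scipy 1.17.1 were used. Pairing and intervals were tested on simulated data. Genes were matched by Entrez number to RefSeq's table of GRCh38.p14 (801 of the 803 members with a nearest gene). Transcripts of 469 of the 472 intronic members matched it. RefSeq coordinates were used with hg38 as the same primary assembly.

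The text names the 12 members with the lowest rank sums, the strongest of each subfamily with at least 20 members, the 5 genes nearest to the most members, and, of the listed genes, those with a member within 10 kb and the 5 with the lowest rank sum. The rule's promoter and exon members do not exist, and a region named by the rule is not reported here. EFNA5, GCLC, GJA1, SEMA5A, the members within 1 kb of a TSS and E-box motifs were added after their values were seen. The members and lists were chosen with earlier results of these data known.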

Additional observations from a re-analysis of the deposited data

How the results depend on the processing

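No paired analysis was possible because the input samples were not analysed here and a single ChIP condition leaves no groups to pair. Alternatives numbered 86 over 13 results, and 57 of them left the result within its interval or, for counts, within a loose limit around the reported number. That limit still took in 554 members with summits within 50 bp, against 807, and 15 listed genes without replicate 2, against 11. Restriction to chromosomes 1 to 22 and X moved none of the 11 results it was run for, nor did taking the repeat from the replicate 2 annotation. Neither was run for the partner shares. The intergenic share, the share within 10 kb of a TSS and the median distance to the TSS stayed within their intervals under each alternative run. The settings that moved values mostly select stronger or closer pairs by construction.

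With summits within 50 bp, the median percentile became 66.1 in replicate 1 and 74.1 in replicate 2, the shared repeat label 92.1%, the share in both top deciles 14.3%, the median summit distance 19.5 bp, and the share of ancient LINE peaks with a partner 40.9% and 34.0%. Within 500 bp the shared label became 80.6%, the summit distance 34 bp, and the partner shares 64.0% and 53.0%. With scores at or above the list median, 470 members remained, with percentiles of 75.2 and 80.8, a shared label in 88.7%, a top decile share of 18.9%, a summit distance of 23 bp, 7 listed genes with a member nearest, against 11, and partner shares of 84.2% and 67.4%. When both lists had to name a non-L1 LINE, the shared label became 98.8% and the summit distance 26 bp.

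Leaving out a replicate means taking all ancient LINE peaks of the other list, paired or not. The member count then ranged from 1353 (without replicate 2) to 1641 (without replicate 1), the share in L2 and CR1 from 94.2% to 94.3%, and listed genes with a member nearest from 15 to 19. The median percentile was 37.8 in replicate 1 and 44.5 in replicate 2. The intergenic share ranged from 41.6% to 43.3%, the share within 10 kb of a TSS from 16.0% to 17.4%, and the median TSS distance from 35792 to 39027 bp. The motif search around all summits was not run, since no genome sequence was used here. Unknown read depth limits every count of peaks.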

Other observations

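Ancient LINE peaks without a partner were mostly weak, with a few exceptions. Of 546 such peaks in replicate 1, 38 scored above the median of the list (6.96%), and of 820 in replicate 2, 109 did (13.3%). The strongest in replicate 1 was an intergenic L2c peak at 206890701 on chromosome 1, 6742 bp upstream of the TSS of IL24, a cytokine gene, with a score of 110. The strongest in replicate 2 was an intergenic L3 peak at 91623123 on chromosome 1, 122015 bp from CDC7, a kinase gene of DNA replication, with a score of 252 and a rank of 831.

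Beside the named genes, strong members near a start site included an L3 fragment in intron 1 of 8 of ZNF362 (4782 bp from the TSS, scores 193 and 268), an L2b fragment in intron 1 of 11 of CORO2B (1990 bp, 133 and 207) and an L2b fragment 3450 bp upstream of YIPF4 (107 and 184), named after their values were seen. Among intron hosts of the melanocyte list whose nearest gene was another, PAX3 held an L2c member in intron 4 of 8 (scores 8.54 and 6.22) and ZEB2 an L2c member in intron 2 of 8 (9.28 and 6.22), both weak in both lists.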
